A study of Homo sapiens with 41 samples.

Results

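Interferon-stimulated genes are the antiviral programme that cells switch on when they sense foreign nucleic acid or bind interferon. The 44 genes described here were given as a fixed list of symbols and found by mapping the Ensembl identifiers of the count files to symbols. All 44 were found among 58735 genes, of which 58207 carry a symbol. Their levels were followed in 2 human lines. LX-2 derives from hepatic stellate cells, which lay down collagen in the liver, and HMLE from the epithelium of the breast, and both are immortalised. Cells expressed either the control hairpin, shCtrl, or shATF4, which targets ATF4, the transcription factor of the integrated stress response. LX-2 received DMSO, TGFbeta, Thapsigargin or AA_Dep. HMLE received DMSO, Twist_OE, Thapsigargin or AA_Dep. Thapsigargin empties the calcium store of the endoplasmic reticulum. AA_Dep reads as deprivation of amino acids and Twist_OE as overexpression of the transcription factor Twist, but the labels do not spell either out and give no dose or time. Every cell therefore carries a hairpin, the labels name no interferon treatment and no infection and do not say how hairpins or Twist were delivered, and whether a line is 1 clone is not given in the sources used here.

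The pathway begins with sensors in the cytoplasm that bind double-stranded RNA, among them IFIH1 (MDA5). These activate IRF3 and IRF7, which switch on the interferon genes and some antiviral genes directly. Secreted interferon then binds receptors that activate JAK kinases, and the complex ISGF3, which holds STAT2 and IRF9, binds a DNA element called ISRE. The products bind viral RNA, degrade it, block entry of virus particles or tag proteins with the ubiquitin-like modifier ISG15.

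Each of the 16 groups had 2 samples, and the samples are not said to come from separate cultures, so p-values measure only the spread between these samples. LX-2 libraries held 14551191 to 18776430 counts, and HMLE libraries 15956909 to 23243132. The HMLE shATF4 AA_Dep files were identical and count as 1 library, which has the lowest total in HMLE and was assumed to vary like the others. In LX-2, shCtrl Thapsigargin replicate 2 had counts in 15840 genes, against 22912 to 24255 in the other libraries, and correlated with its replicate at 0.8539 (log2 CPM across genes), against 0.9847 to 0.9905 for the other pairs. It was left out, and the count of members called in each LX-2 comparison is followed by the count with all 16 libraries. With it the biological coefficient of variation of the LX-2 fit was 29.5%, against 9.21% without it and 5.24% in HMLE. ATF4 was lower with shATF4 in all 8 pairs of groups, with adjusted p of at most 3.03e-05. Stellate and fibroblast markers summed to between 2025 and 19050 CPM in LX-2 and to between 16.9 and 2841 CPM in HMLE, so their ranges overlap. Mammary or basal epithelial markers summed to between 1706 and 15464 CPM in HMLE and to between 418 and 1488 CPM in LX-2. The 10 immune markers summed to between 3.20 and 18.4 CPM in LX-2, where CD3E, MS4A1 and TYROBP were at 0, and to between 1.08 and 7.32 CPM in HMLE, where MS4A1 was at 0.

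The DNA before the start of a gene shows which members carry the element that ISGF3 and the IRF factors bind. RefSeq windows from 250 bases before to 50 bases after the start (GRCh38.p14) were on hand for 35 of the 44 members. Where a gene has several starts, only the first listed was searched. An ISRE core was searched as GAAANNGAAA on both strands, with matches allowed to overlap. It was in 22 of the 35 windows, or 62.9%, and in 3.65% of all 27305 windows. The STAT element TTCNNNGAA was in 9 of the 35 (25.7%, against 7.88% of all windows). The C/EBP-ATF element TGATGNAA, of the kind ATF4 binds with its partners, was in 1 of the 35 (2.86%, against 3.67%). A match is a description of the letters and not evidence that a factor binds there.

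The next 4 sequences belong to members that changed in many comparisons and carry the ISRE core, given in capitals on either strand. IFIT3 is a partner of the RNA-binding protein IFIT1, EPSTI1 was found as a gene of epithelial and stromal interaction, GBP1 is a guanylate-binding protein and ISG15 is the modifier itself. Each run is the 250 bases before the start, 5′ to 3′ on the strand of the gene. They lie at chr10:89327747-89327996 (plus strand), chr13:42992242-42992491 (minus), chr1:89065209-89065458 (minus) and chr1:1013247-1013496 (plus).
IFIT3: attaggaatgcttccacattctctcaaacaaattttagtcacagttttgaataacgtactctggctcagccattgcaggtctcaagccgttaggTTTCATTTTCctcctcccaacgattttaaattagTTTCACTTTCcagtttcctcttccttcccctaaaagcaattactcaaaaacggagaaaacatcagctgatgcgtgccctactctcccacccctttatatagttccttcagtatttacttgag
EPSTI1: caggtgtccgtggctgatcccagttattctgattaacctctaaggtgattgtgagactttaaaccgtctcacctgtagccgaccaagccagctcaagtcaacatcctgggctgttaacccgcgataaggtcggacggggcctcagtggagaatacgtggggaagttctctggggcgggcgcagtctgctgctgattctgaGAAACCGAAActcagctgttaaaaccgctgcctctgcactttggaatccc
GBP1: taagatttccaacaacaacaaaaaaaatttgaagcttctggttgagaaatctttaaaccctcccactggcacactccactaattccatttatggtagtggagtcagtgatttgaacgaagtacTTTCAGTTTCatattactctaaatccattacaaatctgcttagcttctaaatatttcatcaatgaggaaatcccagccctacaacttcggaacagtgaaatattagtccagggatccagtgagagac
ISG15: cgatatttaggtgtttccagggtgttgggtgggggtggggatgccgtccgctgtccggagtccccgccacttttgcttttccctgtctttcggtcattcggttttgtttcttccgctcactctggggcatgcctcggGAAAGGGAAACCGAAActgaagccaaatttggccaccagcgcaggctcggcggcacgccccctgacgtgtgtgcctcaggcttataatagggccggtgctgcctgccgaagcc
IFIT3 has 2 separate matches, whose near ends lie 113 and 147 bases before the start. In ISG15 the matches overlap, with near ends 98 and 104 bases before the start. EPSTI1 and GBP1 have 1 match each, 41 and 118 bases before it.

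UBE2L6 (the conjugating enzyme for ISG15, chr11:57567936-57568185, minus strand) and RSAD2 (viperin, chr2:6865635-6865884, plus strand) also changed often and have no match in their windows. They are shown for contrast, each at a single start of its gene. The RSAD2 run holds repeats of GAAACGAAA, whose spacing the searched letters do not allow. A lack of matches therefore does not show that either gene lacks an ISRE.
UBE2L6: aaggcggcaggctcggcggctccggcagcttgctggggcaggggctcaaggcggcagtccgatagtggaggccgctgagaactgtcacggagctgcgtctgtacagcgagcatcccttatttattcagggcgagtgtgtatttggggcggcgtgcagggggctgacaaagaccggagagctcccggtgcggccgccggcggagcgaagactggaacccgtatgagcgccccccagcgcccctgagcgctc
RSAD2: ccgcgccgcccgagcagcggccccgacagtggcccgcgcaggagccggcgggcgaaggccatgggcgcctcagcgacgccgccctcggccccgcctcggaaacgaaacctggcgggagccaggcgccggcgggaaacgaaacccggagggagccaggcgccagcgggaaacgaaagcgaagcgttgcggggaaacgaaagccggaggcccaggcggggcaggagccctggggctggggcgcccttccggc

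Of the 44 members, 43 reached 1 CPM (the count scaled to the total of its library) in some LX-2 library and 37 were at or above it in every one of the 15. CMPK2, a nucleotide kinase beside RSAD2, had no counts in LX-2 and was not tested there. In HMLE all 44 reached 1 CPM and 32 were at or above it in every library. At least 10 counts in a DMSO library were found for 41 members in LX-2 and 39 in HMLE. CXCL11 and RSAD2 in LX-2, and CMPK2, CXCL10, CXCL11, MX2 and XAF1 in HMLE, reached 10 counts only under another condition, so they could enter the tests only through a group where they are high. Their fitted changes and calls in those lines are descriptions throughout. IFITM1, IFITM2 and IFITM3 are related genes, as are the members of the IFIT family. Where their sequences are alike, reads could be split between them, so their values are uncertain.

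**Figure D1:**
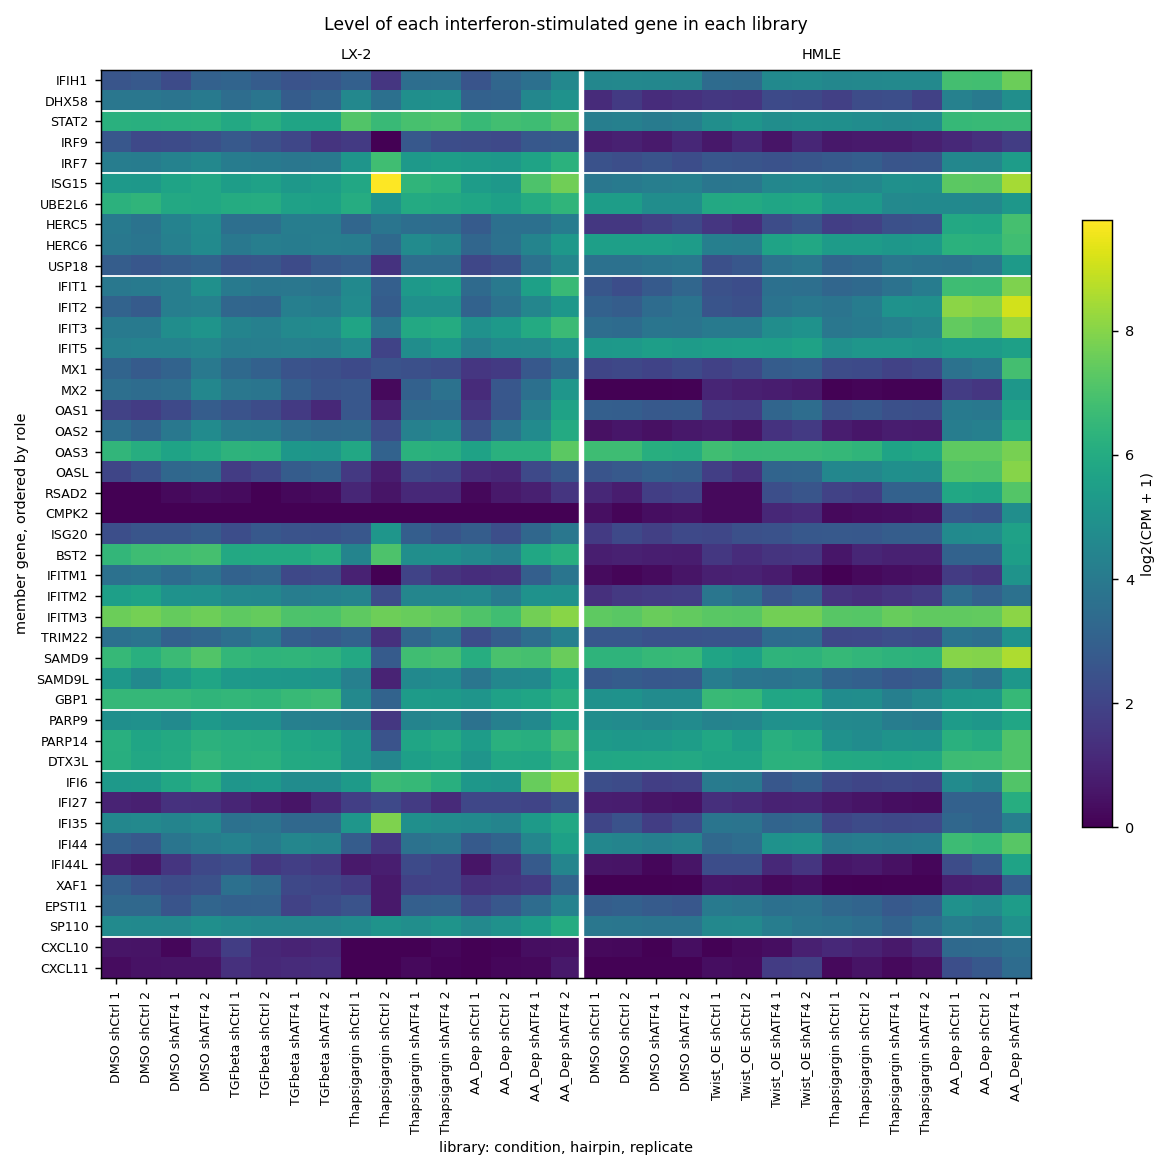
Level of each of the 44 members (rows, ordered by role) in each of 31 libraries (columns), as log2(CPM + 1). The brightest column in HMLE is the single shATF4 AA_Dep library, where 40 members have their highest level, and the LX-2 column of shCtrl Thapsigargin replicate 2 differs from its neighbours.

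In HMLE, 40 members had their highest level in the shATF4 AA_Dep library, and 29 had their highest in shATF4 AA_Dep replicate 2 in LX-2. In both lines the next question is how far each condition moved the genes from DMSO, and whether the hairpin altered that. Changes are log2 changes of the edgeR fit with their standard errors (SE), an adjusted p under 0.05 counts as a change, and medians over all genes lay between -0.023 and 0.026 in HMLE comparisons and between -0.021 and 0.022 in LX-2 comparisons.

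AA_Dep raised the programme in HMLE with the control hairpin. Of the 44 members, 37 rose and 1 fell, against 29.1% of all genes higher and 32.6% lower, and the median over members was 2.22. The sensors (2 of 2), STAT2 and IRF7, 18 of 21 antiviral effectors, 3 of 3 of PARP9, PARP14 and their partner DTX3L, and both chemokines rose. In bulk RNA, a change in the share of cells that express a gene and a change in RNA per cell cannot be told apart.

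IFIT2, whose protein binds RNA, stood at 7.15 and 6.45 CPM in the shCtrl DMSO libraries and at 272 and 251 CPM with AA_Dep. The groups were far apart, at a log2 change of 5.15 ± 0.10 (adjusted p = 2.86e-17). OASL, a relative of the 2-5A synthetases that supports RNA sensing, went from 4.81 and 5.67 to 135 and 131 CPM, a change of 4.56 ± 0.10 (adjusted p = 5.10e-17). RSAD2, a radical enzyme that makes a chain-terminating nucleotide, went from 1.15 and 0.733 to 55.8 and 51.3 CPM. Its change of 5.70 ± 0.15 (adjusted p = 5.95e-16) was the largest that rested on more than 3 counts in DMSO. IFIT1 and IFIT3, which work as a complex on viral RNA, rose together. IFIT1 went from 5.21 and 3.96 to 107 and 103 CPM (4.39 ± 0.14, adjusted p = 5.47e-15). IFIT3 went from 10.3 and 9.63 to 170 and 149 CPM (3.89 ± 0.09, adjusted p = 1.53e-16). ISG15 rose from 13.9 and 15.3 to 158 and 154 CPM (3.30 ± 0.07, adjusted p = 2.86e-17), and HERC5, its main ligase, from 1.99 and 2.00 to 58.8 and 57.1 CPM.

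Some members moved little or the other way. UBE2L6 was the single member that fell, from 42.1 and 42.3 to 24.0 and 22.5 CPM (-0.98 ± 0.07, adjusted p = 2.18e-10), so the enzyme that conjugates ISG15 was lower while ISG15 and HERC5 were higher. USP18, which removes ISG15 and restrains the interferon receptor, stood at 11.6 and 11.4 CPM in DMSO and at 11.6 and 13.5 CPM with AA_Dep (0.01 ± 0.12, adjusted p = 0.954). IRF9, the DNA-binding subunit of ISGF3, had a log2 change of 0.70 ± 0.43 (adjusted p = 0.169) and GBP1 one of 0.14 ± 0.08 (adjusted p = 0.175). SAMD9, an antiviral protein, rose from 81.6 and 80.8 to 253 and 250 CPM (1.52 ± 0.06). OAS3, a 2-5A synthetase, rose from 107 in both DMSO libraries to 163 and 164 CPM (0.49 ± 0.07), and PARP9 from 26.7 and 25.4 to 40.2 and 35.1 CPM (0.42 ± 0.09).

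The members nearly absent from DMSO are given by their counts. MX2, an antiviral GTPase, had 0 counts in the shCtrl DMSO libraries and 2.30 and 1.95 CPM with AA_Dep, at least 30.4-fold higher with a floor of 3 counts over the group. CXCL11 and CXCL10 attract T cells through the receptor CXCR3. CXCL11 was at 0.0441 and 0.0489 CPM, a single read in each library, and rose to 4.11 and 5.42 CPM, a counting ratio of 103 (95% exact interval 28.1 to 859, counting error only). CXCL10 was at 0.176 and 0.147 CPM in DMSO and at 9.02 and 9.37 CPM with AA_Dep. It reached 10 counts in no DMSO library and so entered the test through other groups, and its fitted change of 5.66 ± 0.47 is a description.

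With shATF4, AA_Dep raised 43 of the 44 members, against 25.7% of all genes higher and 28.4% lower, with a median of 3.10. All 44 were above both DMSO libraries in the single AA_Dep library. IFIT5 was the 1 member that did not pass, at 43.8 and 40.3 CPM in DMSO and 46.5 CPM with AA_Dep (0.06 ± 0.09, adjusted p = 0.608). IFI44L, an interferon-induced gene, went from 0.135 and 0.455 to 50.7 CPM (7.32 ± 0.31, adjusted p = 8.07e-13). MX2 went from a single count over both DMSO libraries to 35.3 CPM, a counting ratio of 1557 (exact 95% interval 278 to 61620). XAF1, an apoptosis gene, also had a single DMSO count and reached 6.52 CPM, a ratio of 288 (50.5 to 11470), and CXCL11 reached 10.1 CPM, a ratio of 223 (60.7 to 1855).

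The direct comparison of the hairpins under AA_Dep gave 40 of 44 members higher with shATF4, against 9.77% of all genes higher and 7.09% lower, and a median difference of 1.03. All 44 members were higher in the shATF4 library than in both shCtrl libraries. That arm is 1 library, whose spread is taken from the other groups. In LX-2 the replicates of shATF4 AA_Dep differed over members by a median of 0.72 on the log2 scale, and the part of such a difference here was not tested. MX2 (4.10 ± 0.23), IFITM1 (3.98 ± 0.30), IFI44L (3.44 ± 0.22) and IFI27 (3.25 ± 0.14) differed most. MX2 reached 10 counts in no HMLE DMSO library, so its value is a description. MX1, an antiviral GTPase of the dynamin family, stood at 11.8 and 14.0 CPM with shCtrl and at 114 CPM with shATF4 (3.19 ± 0.12, adjusted p = 1.14e-12). BST2, or tetherin, which holds budding virus at the cell surface, stood at 7.40 and 7.37 CPM against 43.4 CPM (2.60 ± 0.19, adjusted p = 7.40e-09). IFIT2 was at 272 and 251 CPM against 547 CPM (1.11 ± 0.09), RSAD2 at 55.8 and 51.3 against 144 CPM (1.47 ± 0.10) and OASL at 135 and 131 against 258 CPM (0.998 ± 0.083). ISG15 was at 158 and 154 against 351 CPM (1.22 ± 0.06). Differences for IRF9 (0.85 ± 0.46, adjusted p = 0.240) and IFITM2 (0.47 ± 0.22, adjusted p = 0.158) did not pass.

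Whether AA_Dep itself did more with shATF4 was tested as the difference of both responses. That difference was positive and past the threshold for 28 members, against 2.99% of all genes higher and 2.10% lower, with a median of 0.91. It was largest for IFI44L (4.07 ± 0.63, adjusted p = 4.96e-04), IFI27 (4.01 ± 0.36), IFI6 (3.23 ± 0.23) and MX1 (3.17 ± 0.21). The members that had risen most in the control cells did not all share it. RSAD2 had a response of 5.63 ± 0.13 with shATF4 beside 5.70 ± 0.15 with shCtrl, a difference of -0.06 ± 0.24 (adjusted p = 0.944). IFIT2 (0.39 ± 0.16, adjusted p = 0.207), HERC5 (0.48 ± 0.22, adjusted p = 0.277) and IFIT1 (0.59 ± 0.21, adjusted p = 0.135) did not pass either, while OASL did (0.63 ± 0.16, adjusted p = 0.024). UBE2L6 turned from a fall to a rise, at 26.7 and 26.9 CPM in shATF4 DMSO and 35.0 CPM with AA_Dep (0.30 ± 0.08), a difference of 1.28 ± 0.10 (adjusted p = 1.95e-07). USP18 rose to 38.8 CPM from 12.9 and 14.1 CPM, a difference of 1.43 ± 0.17 (adjusted p = 2.97e-05). IFITM1 (2.93 ± 0.91, adjusted p = 0.073) and CMPK2 (1.87 ± 0.63, adjusted p = 0.104) had large differences that did not pass.

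**Figure D2:**
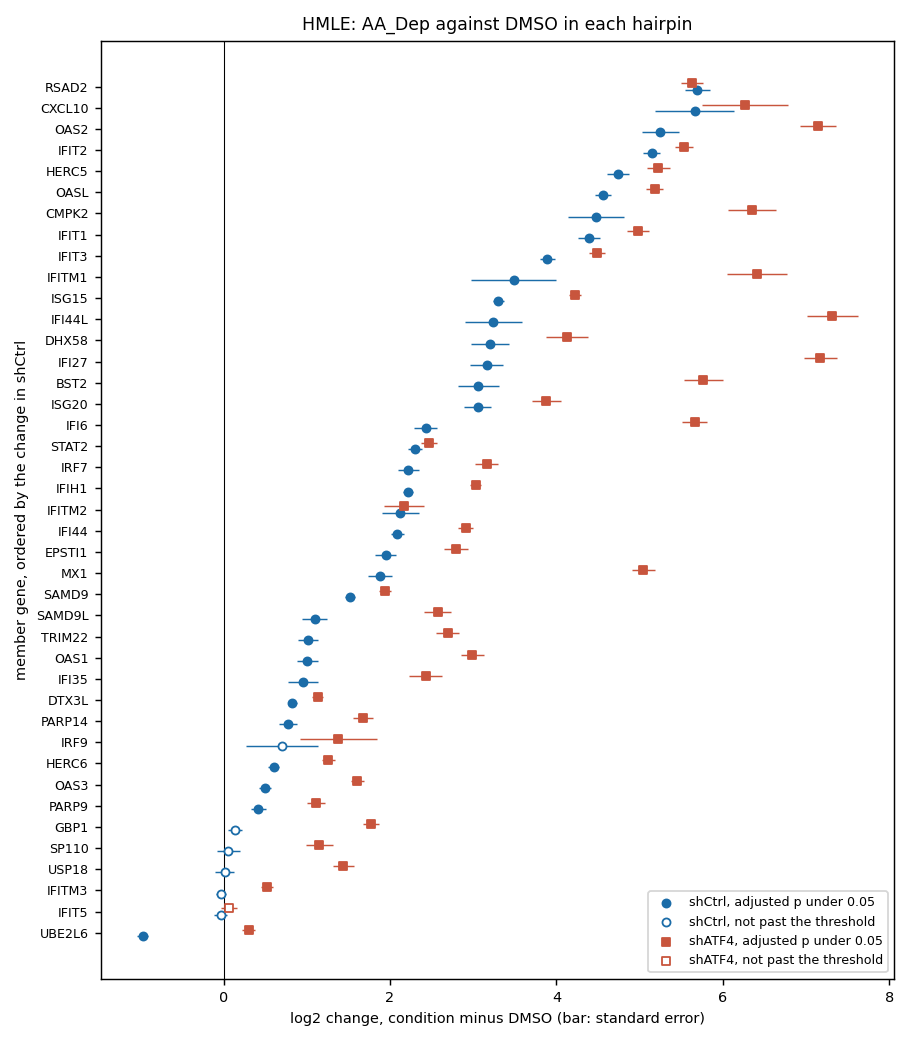
Log2 change from DMSO to AA_Dep in HMLE for the 41 members with more than 3 counts in each DMSO group (bars, standard error; filled, adjusted p under 0.05), in the order of the shCtrl change. The symbols of both hairpins lie close together for RSAD2 and IFIT2 and far apart for IFI44L, IFI27, IFI6 and MX1.

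Interferon genes themselves were read at low levels in the same libraries. IFNB1, the beta interferon, had 0 counts in all 4 HMLE DMSO libraries, 1.31 and 1.18 CPM with AA_Dep and shCtrl, and 3.32 CPM with shATF4. These are at least 17.8-fold and at least 48.9-fold above the floor of 3 counts. The lambda interferon IFNL1 went from 0 and 0.098 to 5.54 and 5.25 CPM with shCtrl (a counting ratio of 116, exact 95% interval 31.7 to 967). With shATF4 it went from 0 in both libraries to 12.9 CPM, at least 190-fold higher. Under AA_Dep the fitted difference between hairpins was 1.30 ± 0.32 for IFNL1 and 1.46 ± 0.50 for IFNB1, with shATF4 a single library. Both genes had few counts in HMLE outside AA_Dep and could enter the test only through those groups. Their differences are therefore descriptions. IFNL2 and IFNL3 are near-identical copies and their counts are uncertain. They reached 1.06 and 1.18 CPM, and 0.995 and 0.589 CPM, from 0 in shCtrl DMSO.

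STAT2, a subunit of ISGF3, rose with both hairpins, from 17.0 and 18.3 to 93.8 and 94.5 CPM with shCtrl and from 15.7 and 17.6 to 97.6 CPM with shATF4, and its responses differed by 0.17 ± 0.13 (adjusted p = 0.575). IFIH1 rose from 22.4 and 22.9 to 115 and 112 CPM with shCtrl (2.21 ± 0.06) and from 22.2 and 21.5 to 189 CPM with shATF4 (3.03 ± 0.07). RIGI, the other main RNA sensor, was higher with shATF4 under AA_Dep by 1.09 ± 0.06 (adjusted p = 5.06e-10). The summed immune markers were at 5.60 and 6.99 CPM in shCtrl DMSO, 3.36 and 2.48 in shCtrl AA_Dep, 5.19 and 5.24 in shATF4 DMSO and 2.32 in shATF4 AA_Dep.

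Twist_OE moved members in both directions in cells with the control hairpin, as it did all genes. Of 44 members 19 rose and 10 fell, against 28.3% of all genes higher and 28.9% lower. The share of members that fell is near or below that of all genes. The risers were led by IFI44L, at 0.485 and 0.440 CPM in DMSO and 3.94 and 4.03 CPM with Twist_OE (3.10 ± 0.34), IFITM2 (2.72 ± 0.21), IFI6 (1.98 ± 0.14) and IFI35 (1.76 ± 0.17). GBP1 rose from 29.6 and 30.7 to 97.0 and 93.1 CPM, and UBE2L6 from 42.1 and 42.3 to 58.4 and 60.5 CPM. The members that fell were OAS1 (-1.47 ± 0.16), HERC6, a ligase relative of HERC5 (-1.37 ± 0.07), OASL (-1.32 ± 0.17) and USP18 (-1.26 ± 0.13) among others. RSAD2 fell from 1.15 and 0.733 to 0.197 and 0.183 CPM (-2.28 ± 0.41). SAMD9 fell from 81.6 and 80.8 to 51.0 and 45.1 CPM and PARP9 from 26.7 and 25.4 to 19.5 and 20.8 CPM. ISG15 (13.4 and 13.6 CPM), IFIT1 (4.33 and 4.03) and OAS3 (108 and 96.3) did not pass with Twist_OE. IFIT3 rose to 15.2 and 15.3 CPM (0.62 ± 0.11), and IFIT2 fell to 4.82 and 4.30 CPM (-0.57 ± 0.16, adjusted p = 0.0043). ISG20, an exonuclease (0.45 ± 0.20, adjusted p = 0.067), and CXCL10 (-0.43 ± 1.01, adjusted p = 0.746) did not pass.

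With shATF4 the same condition gave 34 members higher and 1 lower, against 18.2% of all genes higher and 17.2% lower, with a median of 0.73. CXCL11 rose from a single read in each DMSO library to 2.32 and 2.58 CPM (a counting ratio of 54.4, exact 95% interval 14.7 to 455). IFI44L rose by 2.34 ± 0.44, OAS2, a 2-5A synthetase, by 2.08 ± 0.30 and CMPK2 by 1.90 ± 0.37. SAMD9 fell, from 93.7 and 94.4 to 82.1 and 78.4 CPM (-0.26 ± 0.06, adjusted p = 0.0034). IFITM1 (0.42 ± 0.56, adjusted p = 0.615) and OASL (0.22 ± 0.12, adjusted p = 0.187) did not pass. HERC6, IFI44, OAS1, PARP9 and RSAD2 were the 5 members that fell with shCtrl and rose with shATF4, as 1.64% of all genes did.

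**Figure D3:**
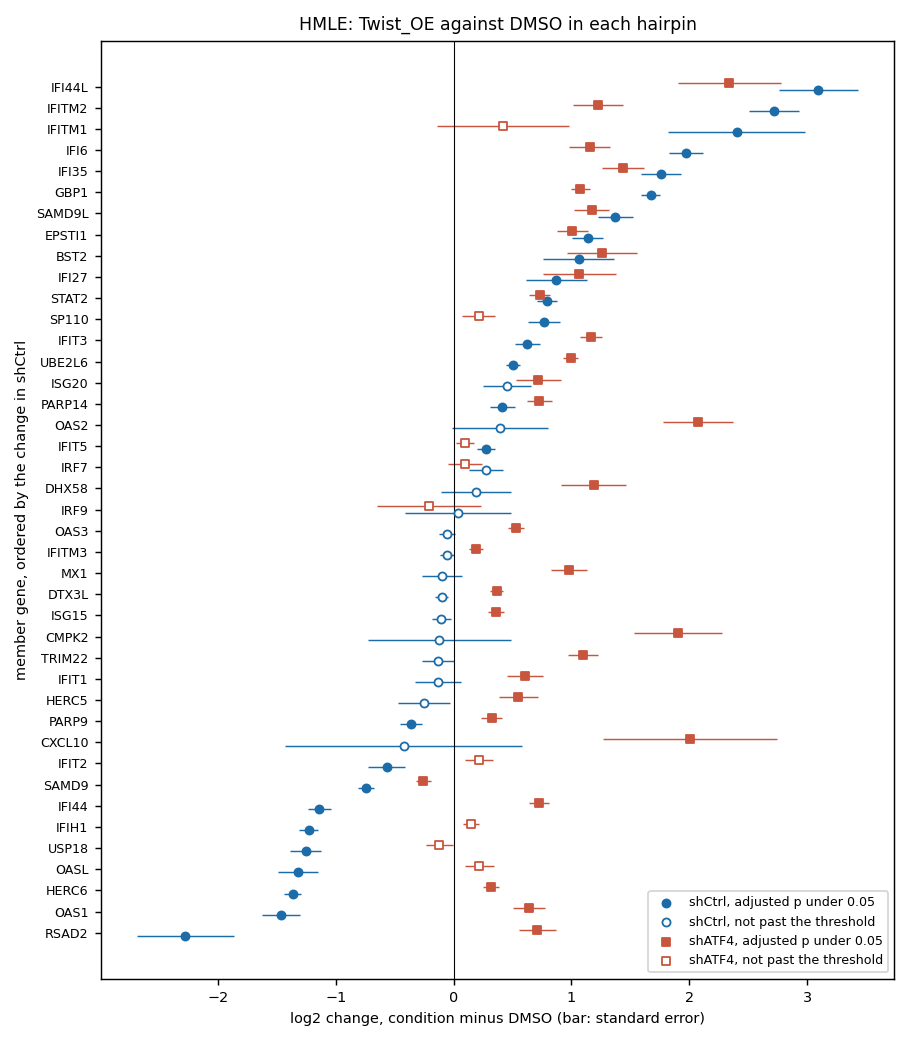
Log2 change from DMSO to Twist_OE in HMLE for 41 members (bars, standard error; filled, adjusted p under 0.05). The shCtrl changes run from falls (RSAD2, OAS1, HERC6, OASL) to rises (IFITM2, IFI44L), while most shATF4 changes are positive. Over all 44 members, with those not drawn, 41 have a positive change with shATF4.

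The responses to Twist_OE differed between hairpins for 26 members, 22 more positive and 4 more negative with shATF4, against 16.3% of all genes higher and 13.4% lower. RSAD2 (2.99 ± 0.44), OAS1 (2.11 ± 0.21), CMPK2 (2.02 ± 0.74) and IFI44 (1.87 ± 0.13) led the first, and IFITM2 (-1.496 ± 0.313), IFI6 (-0.82 ± 0.24), GBP1 (-0.60 ± 0.11) and SP110 (-0.55 ± 0.19), a nuclear body protein, were the second. OAS1 shows the pattern, at 2.51 and 2.33 CPM with shCtrl Twist_OE and 8.03 and 10.2 CPM with shATF4 Twist_OE, on either side of 6.84 and 6.65 CPM in shCtrl DMSO. ATF4 itself was lower by 0.57 on the log2 scale with Twist_OE in shCtrl cells and higher by 0.31 in shATF4 cells.

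Directly compared under Twist_OE, 24 members were higher and 8 lower with shATF4, against 23.3% of all genes higher and 23.9% lower. The share of members lower is near or below that of all genes. RSAD2 stood at 0.197 and 0.183 CPM with shCtrl and 4.14 and 4.99 CPM with shATF4 (4.53 ± 0.29, adjusted p = 1.27e-10). IFIT2 stood at 4.82 and 4.30 against 12.1 and 14.3 CPM (1.51 ± 0.14), IFIT1 at 4.33 and 4.03 against 11.1 and 10.8 CPM (1.36 ± 0.17), and OASL at 2.56 and 1.60 against 7.78 and 8.13 CPM (1.92 ± 0.16). CXCL11 (3.18 ± 0.38) and CMPK2 (2.63 ± 0.42) were also higher. ISG15 was at 13.4 and 13.6 against 22.3 and 24.1 CPM, IFIT3 at 15.2 and 15.3 against 26.97 and 30.9 CPM, and PARP9 at 19.5 and 20.8 against 29.6 and 30.8 CPM. Lower with shATF4 were IFI44L (-1.39 ± 0.27), IFI6 at 15.7 and 14.5 against 5.30 and 6.50 CPM (-1.38 ± 0.13), IFITM2 (-1.06 ± 0.18) and GBP1 at 97.0 and 93.1 against 53.9 and 55.7 CPM (-0.82 ± 0.07). UBE2L6 (58.4 and 60.5 against 53.1 and 55.7 CPM) was lower as well (-0.16 ± 0.06, adjusted p = 0.032), and OAS3 with 99.2 and 97.9 CPM did not differ past the threshold. IFITM1 (-0.93 ± 0.47, adjusted p = 0.113) and XAF1 (-0.91 ± 0.57, adjusted p = 0.205) did not pass.

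Thapsigargin raised part of the list in HMLE. With shCtrl 16 members rose and 5 fell, against 18.6% of all genes higher and 18.2% lower, and the median was 0.17. Without DMSO replicate 1 there were 13 calls in place of 21. OASL rose most clearly, from 4.81 and 5.67 to 21.8 and 21.4 CPM (2.09 ± 0.11, adjusted p = 2.18e-11). CXCL10 had a fitted change of 2.69 ± 0.63. RSAD2 rose from 1.15 and 0.733 to 2.84 and 2.41 CPM (1.5 ± 0.22), and IFIT2 from 7.15 and 6.45 to 12.5 and 16.1 CPM (1.12 ± 0.13). IFIT1 reached 8.44 and 9.05 CPM (0.97 ± 0.17), IFIT3 13.5 and 14.9 CPM (0.56 ± 0.11) and ISG15 21.0 and 22.4 CPM (0.62 ± 0.07). TRIM22 (-0.59 ± 0.14), PARP14 (-0.40 ± 0.11), IFI44 (-0.37 ± 0.09) and USP18 (-0.36 ± 0.12) fell. OAS3, at 91.0 and 82.5 CPM, also fell (-0.26 ± 0.07). SAMD9 rose slightly, to 92.2 and 85.3 CPM (0.17 ± 0.06, adjusted p = 0.039). PARP9 (23.5 and 22.5 CPM) and UBE2L6 (38.3 and 38.5 CPM) did not pass. MX2 and XAF1 had too few counts for a fold.

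With shATF4, Thapsigargin gave 12 members higher and 9 lower, against 16.8% of all genes higher and 15.7% lower. OASL went from 6.95 and 6.46 to 28.7 and 27.8 CPM (2.09 ± 0.10, adjusted p = 1.10e-11), IFIT2 from 10.1 and 12.2 to 30.4 and 29.1 CPM (1.43 ± 0.11), and RSAD2 from 2.53 and 2.96 to 7.30 and 7.31 CPM (1.43 ± 0.15). DHX58, the regulator LGP2 of RNA sensing, rose by 1.17 ± 0.28. IFIT1 reached 12.0 and 16.1 CPM from 5.82 and 8.28, IFIT3 18.1 and 21.5 from 12.9 and 12.4, and ISG15 29.0 and 28.1 from 17.2 and 18.2 CPM. PARP9 fell from 22.1 and 25.3 to 16.9 and 14.7 CPM (-0.56 ± 0.09), and OAS1 (-0.45 ± 0.15), SP110 (-0.44 ± 0.15) and IFIT5 (-0.34 ± 0.08) fell as well. In all, 11 members and 12.5% of all genes rose with both hairpins, the members including CXCL10, CXCL11, DHX58, IFIT1, IFIT2, IFIT3, OASL and RSAD2. The responses differed for 1 member, SAMD9 (-0.41 ± 0.09, adjusted p = 0.0095), which stood at 93.7 and 94.4 CPM in shATF4 DMSO and 80.1 and 77.3 CPM with Thapsigargin. Of all genes 2.16% were higher and 2.40% lower in that comparison.

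Between hairpins in the presence of Thapsigargin, 9 members were higher and 6 lower with shATF4, against 12.3% of all genes higher and 11.9% lower. RSAD2 (1.46 ± 0.15), IFIT2 (1.04 ± 0.10), HERC5 (0.69 ± 0.17) and IFIT1 (0.67 ± 0.14) were higher, and OAS3 (49.7 and 55.6 against 91.0 and 82.5 CPM, -0.73 ± 0.07), UBE2L6 (23.5 and 23.9 against 38.3 and 38.5 CPM, -0.71 ± 0.06), PARP9 (-0.55 ± 0.09) and EPSTI1 (-0.48 ± 0.14) were lower. IFI44L (-1.30 ± 0.57, adjusted p = 0.115) did not pass.

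In DMSO, 6 members were higher and 2 lower with shATF4, against 6.08% of all genes higher and 6.72% lower. RSAD2 stood at 1.15 and 0.733 CPM against 2.53 and 2.96 CPM (1.54 ± 0.22, adjusted p = 1.02e-04). IFIT2 stood at 7.15 and 6.45 against 10.1 and 12.2 CPM (0.72 ± 0.13), and IFIT1 (0.62 ± 0.18) and IFIT3 (0.36 ± 0.11) were also higher. OAS3 was lower, at 107 in both shCtrl libraries against 68.8 and 65.0 CPM (-0.67 ± 0.07), as was UBE2L6, at 42.1 and 42.3 against 26.7 and 26.9 CPM (-0.64 ± 0.06). The share lower is near that of all genes. Leaving out shATF4 replicate 2 or either shCtrl library gave 5 calls in place of 8.

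In LX-2, AA_Dep had the opposite sign with the control hairpin. Of 43 members 5 rose and 17 fell, against 22.8% of all genes higher and 22.7% lower, with a median of -0.34. With all 16 libraries 2 rose and 8 fell, and 13.0% of genes were called. BST2 fell from 87.7 and 105 to 23.0 and 18.1 CPM (-2.25 ± 0.14, adjusted p = 3.26e-09, or 0.074 with 16 libraries). IFITM1, which blocks virus entry, fell from 11.5 and 12.5 to 1.40 and 1.56 CPM (-3.04 ± 0.30, adjusted p = 7.12e-07), and its relatives IFITM2, from 45.5 and 49.6 to 22.6 and 15.2 CPM (-1.35 ± 0.14), and IFITM3, from 193 and 212 to 136 and 110 CPM (-0.74 ± 0.11), fell too. GBP1 fell from 91.2 and 89.8 to 33.3 and 47.2 CPM (-1.19 ± 0.14). DHX58 went from 13.6 in both libraries to 7.17 and 7.62 CPM (-0.90 ± 0.18), EPSTI1 from 8.86 and 8.92 to 3.50 and 5.31 CPM (-1.04 ± 0.30), OASL from 3.10 and 4.49 to 1.29 and 1.16 CPM (-1.64 ± 0.30) and UBE2L6 from 77.6 and 82.9 to 52.7 and 45.6 CPM (-0.73 ± 0.11). XAF1 (-1.79 ± 0.42) and MX1 (-1.78 ± 0.33) were further falls. IFI6 stood at 35.3 and 32.2 CPM beside 37.2 and 38.7 CPM (adjusted p = 0.401).

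The 5 members that rose in these cells were IFI27 (1.84 ± 0.38), IRF7 (1.16 ± 0.16), IFIT3 from 15.003 and 14.9 to 30.1 and 37.0 CPM (1.15 ± 0.19), STAT2 (0.49 ± 0.12) and RSAD2. RSAD2 had 0 counts in DMSO and 0.162 and 0.578 CPM with AA_Dep, at least 4.50-fold higher. USP18 (-0.67 ± 0.28, adjusted p = 0.062) did not pass, nor did CXCL11, with a counting ratio of 5.78 between DMSO and AA_Dep (exact 95% interval 1.29 to 53.2).

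With shATF4 the direction turned. AA_Dep gave 22 of 43 members higher and 4 lower, against 20.3% of all genes higher and 22.1% lower, with a median of 0.57. In the fit of all 16, 4 were called and higher, and 8.52% of genes were called. OAS1, a 2-5A synthetase, rose from 3.50 and 6.41 to 17.1 and 49.1 CPM (2.64 ± 0.43, adjusted p = 1.45e-04, or 0.028 with 16 libraries). IFI6, a membrane protein of mitochondria and endoplasmic reticulum, rose from 56.6 and 73.0 to 181 and 270 CPM (1.71 ± 0.17, adjusted p = 8.87e-07). ISG15 rose from 49.5 and 56.7 to 131 and 201 CPM (1.55 ± 0.16), DHX58 from 12.7 and 14.8 to 22.008 and 30.8 CPM (0.85 ± 0.17) and EPSTI1 from 4.83 and 8.20 to 9.87 and 19.4 CPM (1.07 ± 0.28). RSAD2 (2.40 ± 0.76) and IFI44L (2.28 ± 0.50) rose as well. BST2 still fell, from 108 and 118 to 55.7 and 69.5 CPM (-0.94 ± 0.13), and so did OASL, from 8.63 and 9.40 to 3.46 and 5.52 CPM (-1.09 ± 0.24), HERC5 (-0.78 ± 0.23) and GBP1, from 89.9 and 84.6 to 52.9 and 70.6 CPM (-0.58 ± 0.14). IFITM1 (6.81 and 13.0 CPM), IFITM2 (30.5 and 29.7), IFITM3 (209 and 262) and UBE2L6 (64.6 and 82.6) did not differ from shATF4 DMSO past the threshold, and MX1 (-0.65 ± 0.28, adjusted p = 0.072) and CXCL10 (-0.63 ± 0.81, adjusted p = 0.567) did not either. DHX58, EPSTI1 and TRIM22 fell with shCtrl and rose with shATF4, as 0.252% of all genes did (47 genes). In the fit of all 16 this held for DHX58 alone, the 1 gene of 17772 tested.

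**Figure D4:**
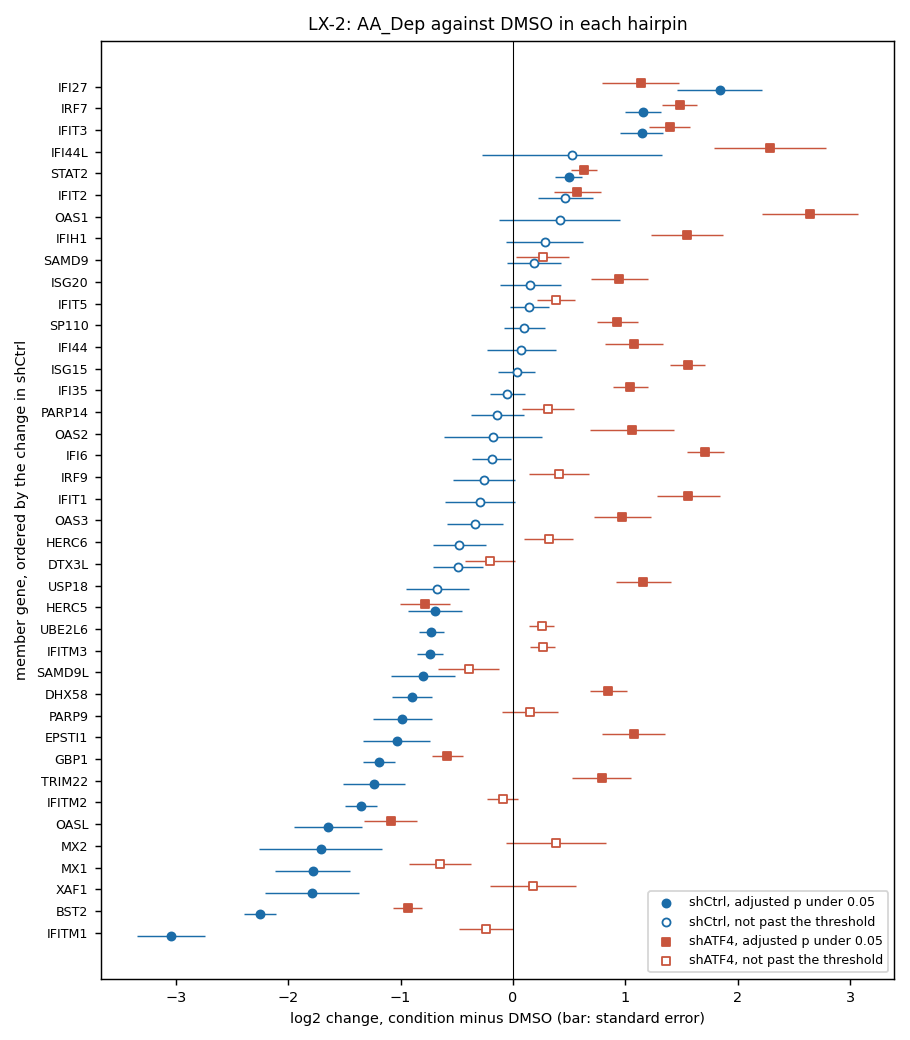
Log2 change from DMSO to AA_Dep in LX-2 for 40 members (15 libraries; bars, standard error; filled, adjusted p under 0.05). Most shCtrl symbols lie left of 0, led by IFITM1 and BST2, and most shATF4 symbols lie to their right.

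The hairpins compared directly under AA_Dep gave 32 of 43 members higher with shATF4, against 3.87% of all genes higher and 6.04% lower, with a median of 1.41. Over the full 16 libraries, 1 was called, and 0.0900% of genes, while 25 had an unadjusted p under 0.05. IFI44L stood at 0.485 and 1.5015 CPM with shCtrl and at 5.84 and 20.9 CPM with shATF4 (3.68 ± 0.57, adjusted p = 8.71e-04, or 0.156 with 16 libraries). OAS1 (3.18 ± 0.45), MX2 (2.72 ± 0.53) and IFI6 (2.66 ± 0.17, adjusted p = 1.66e-07) followed. CXCL10 had 1 count with shCtrl and a counting ratio of 11.0 (exact 95% interval 1.60 to 475), and CXCL11 one of 6.52 (1.48 to 59.6). Neither passed.

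The difference of both AA_Dep responses passed for 16 members, all more positive with shATF4, against 3.91% of all genes higher and 6.65% lower, with a median of 1.09. With the omitted library added, 0 members were called by edgeR, with 12 at an unadjusted p under 0.05, and 0.0675% of genes. IFITM1 (2.80 ± 0.39, adjusted p = 3.54e-04), EPSTI1 (2.11 ± 0.41), TRIM22 (2.03 ± 0.38) and XAF1 (1.96 ± 0.57) led. CXCL10 and RSAD2 rested on 3 or fewer counts in a group.

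The spread between replicates was wide in the LX-2 AA_Dep groups. In LX-2 shATF4 AA_Dep, replicate 2 exceeded replicate 1 in 40 of 41 members with enough counts, by a median of 0.72 on the log2 scale, and 65.9% of members differed by over 1.5-fold, against 7.40% of all genes. OAS1 was at 17.1 and 49.1 CPM and IFIT1 at 46.1 and 98.0 CPM in the 2 libraries. In shATF4 DMSO replicate 2 was the higher in 36 of 40 members (median 0.29, 22.5% over 1.5-fold, against 7.33% of all genes). In shCtrl AA_Dep it was the higher in 29 of 40 (40.0% over 1.5-fold, against 15.8%). In the other LX-2 groups of the 15 libraries 0 to 7.32% of members differed that much, and in HMLE groups 2.27% to 7.50%. Without shATF4 AA_Dep replicate 2 the hairpin comparison under AA_Dep called 17 members in place of 32.

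**Figure D5:**
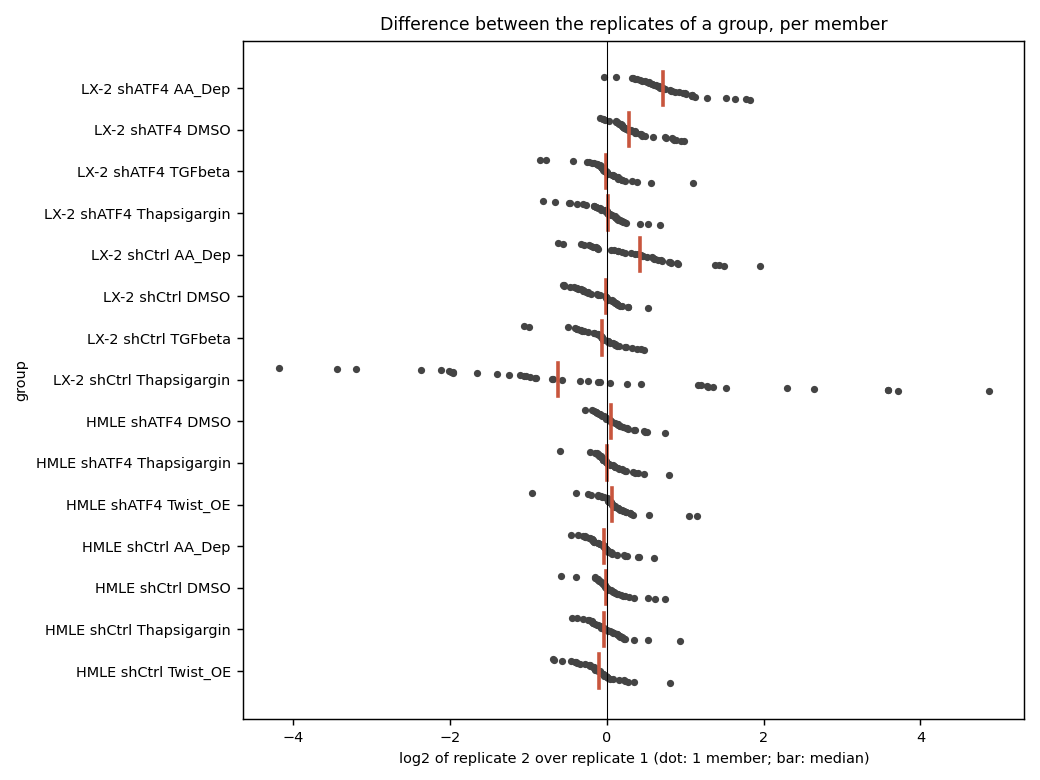
Log2 ratio of replicate 2 to replicate 1 for each member with at least 20 counts over the pair (dots) and the median (bar), by group. LX-2 shATF4 AA_Dep is shifted to the right of 0 with a median of 0.72, and shCtrl Thapsigargin in LX-2 has the widest scatter.

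In the omitted library, shCtrl Thapsigargin replicate 2, several members were far from replicate 1. ISG15 was at 880 CPM against 56.9, IFI35 at 239 against 34.5, IRF7 at 108 against 32.9 and BST2 at 131 against 20.6 CPM. Others were far lower, with SAMD9 at 6.03 against 59.6 CPM and OAS3 at 7.41 against 56.9 CPM. In this pair 80.0% of members and 75.9% of all genes differed by over 1.5-fold.

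Thapsigargin in LX-2, with replicate 1 alone for shCtrl, gave 9 members higher and 17 lower, against 20.2% of all genes higher and 20.4% lower. The share higher is near that of all genes, and the spread of the single shCtrl library is taken from other groups. With all 16 libraries 9 were higher and 12 lower, and 34.4% of genes were called. Without DMSO replicate 1 the comparison called 14 members in place of 26, and without DMSO replicate 2 it called 16. IFITM1 fell from 11.5 and 12.5 to 0.929 CPM (-3.79 ± 0.44), BST2 from 87.7 and 105 to 20.6 CPM (-2.33 ± 0.18), GBP1 to 23.6 CPM (-2.04 ± 0.19) and XAF1 by 1.40 on the log2 scale. For BST2 the sign depends on the omitted library, since with it the log2 change was 0.35 (adjusted p = 0.721). IFITM2 fell to 19.5 CPM, IFITM3 to 165, UBE2L6 to 66.0, OASL to 2.09 and EPSTI1 to 4.71 CPM. IFIT2 rose from 7.58 and 6.06 to 25.6 CPM (1.80 ± 0.26), IFIT3 to 51.8 CPM (1.69 ± 0.22), DHX58 to 22.5 CPM (0.63 ± 0.20) and IFI27 by 1.39 ± 0.46. RSAD2, with 0 counts in DMSO, reached 1.05 CPM, at least 13.0-fold higher. IFI6 stood at 38.8 CPM, near DMSO, and MX2 (-1.09 ± 0.65, adjusted p = 0.198) and OAS1 (0.96 ± 0.61, adjusted p = 0.228) did not pass.

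With shATF4, where both libraries were used, Thapsigargin gave 9 members higher and 9 lower, against 17.8% of all genes higher and 19.2% lower, both near the members' shares. In the fit of all 16, 1 was higher and 3 lower, and 7.86% of genes were called. IFITM1 fell from 9.60 and 12.4 to 2.87 and 1.79 CPM (-2.29 ± 0.29, adjusted p = 1.42e-05), BST2 from 108 and 118 to 27.7 and 28.2 CPM (-2.08 ± 0.14), OASL from 8.63 and 9.40 to 3.24 and 2.96 CPM (-1.61 ± 0.25), MX1 by 1.52 on the log2 scale and GBP1 from 89.9 and 84.6 to 40.8 and 39.1 CPM (-1.20 ± 0.14). IFITM2 fell from 30.7 and 29.7 to 21.5 and 21.6 CPM. RSAD2 (2.25 ± 0.78), DHX58 from 12.7 and 14.8 to 28.6 and 29.8 CPM (1.01 ± 0.17), IFIT3 (1.01 ± 0.18) and IFIH1 (0.90 ± 0.33) rose. IFI6 (92.4 and 71.3 CPM), EPSTI1 (6.72 and 7.28), IFITM3 (180 and 167) and UBE2L6 (61.7 and 58.4) did not pass, nor did CXCL11 (-1.75 ± 0.84, adjusted p = 0.120) or CXCL10. DHX58, IFIT2, IFIT3, IRF7, ISG15, RSAD2 and STAT2 were the 7 members that rose with both hairpins, as 12.5% of all genes did. In the 16-library fit edgeR called 0 members higher with both, and 2.93% of all genes.

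The hairpins differed under Thapsigargin for 2 members, GBP1 (0.78 ± 0.19, adjusted p = 0.025) and IFI6 (1.10 ± 0.22, adjusted p = 0.0072), both higher with shATF4, against 3.11% of all genes higher and 2.09% lower. Over the full 16 libraries, edgeR called 0 members, with 23 at an unadjusted p under 0.05, and 0.231% of genes, and the difference of IFI6 changed sign to -0.46. The responses differed for IFITM2 (0.83 ± 0.23, adjusted p = 0.040) and GBP1 (0.85 ± 0.23, adjusted p = 0.043), against 3.67% of all genes higher and 2.46% lower. With the omitted library added, 0 members were called by edgeR, with 12 at an unadjusted p under 0.05, and 0.270% of genes. On leaving out a library in turn, between 0 and 1 members were called in the direct comparison and 0 in that of the responses.

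TGFbeta, the main signal that turns stellate cells into matrix-making cells, gave 4 members higher and 3 lower with the control hairpin, against 11.1% of all genes higher and 11.0% lower, so the share of members called is near or below that of all genes. It called 3 members without DMSO replicate 2, and 4 without DMSO replicate 1 or TGFbeta replicate 1. With all 16 libraries 1 was higher, IFI44, and 3.15% of genes were called. IFI44 rose from 7.05 and 5.62 to 19.1 and 15.5 CPM (1.58 ± 0.29, adjusted p = 7.65e-04), IFI44L from 0.801 and 0.541 to 3.98 and 1.97 CPM (2.26 ± 0.67), CXCL11 from 0.267 and 0.379 to 1.57 and 1.17 CPM (2.19 ± 0.60) and CXCL10 from 0.480 and 0.432 to 2.41 and 1.12 CPM (2.06 ± 0.65). IFITM2 fell from 45.5 and 49.6 to 22.8 and 21.9 CPM (-0.96 ± 0.14), IFI35 by 0.78 on the log2 scale and BST2 from 87.7 and 105 to 58.4 and 60.4 CPM (-0.57 ± 0.13). GBP1 (89.2 and 84.3 CPM), DHX58 (10.2 and 12.8), EPSTI1 (7.01 and 7.19), IFI6 (34.6 and 37.8), IFITM1 (7.46 and 8.41), IFITM3 (163 and 174), OASL (2.36 and 3.25) and UBE2L6 (63.6 and 65.9) did not pass. XAF1 had a log2 change of 0.93 ± 0.35 (adjusted p = 0.069).

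With shATF4, TGFbeta gave 1 member higher and 11 lower, against 13.5% of all genes higher and 14.1% lower. Either TGFbeta library left out gave 6 calls, and DMSO replicate 2 left out gave 7. In the fit of all 16, edgeR called 0, with 5 at an unadjusted p under 0.05, and 2.42% of genes. CXCL11 rose (1.78 ± 0.58), a description since it reached 10 counts in no LX-2 DMSO library. IFITM1 fell from 9.60 and 12.4 to 3.33 and 3.68 CPM (-1.52 ± 0.27), MX2 by 1.38, MX1 by 1.18 and IFI6 from 56.6 and 73.0 to 26.0 and 26.1 CPM (-1.19 ± 0.17). BST2 fell from 108 and 118 to 60.0 and 68.5 CPM, IFITM2 from 30.7 and 29.7 to 16.9 and 17.6, IFITM3 from 176 and 194 to 132 and 127, DHX58 from 12.7 and 14.8 to 6.13 and 7.97 and EPSTI1 from 4.83 and 8.20 to 2.85 and 3.57 CPM. GBP1 (96.1 and 102 CPM), OASL (6.18 and 7.26) and UBE2L6 (47.0 and 45.6) did not pass, nor did OAS1 (-1.44 ± 0.55, adjusted p = 0.065) or CXCL10 (1.31 ± 0.69, adjusted p = 0.176). The responses to TGFbeta differed for 1 member, IFI6 (-1.25 ± 0.24, adjusted p = 0.021), against 0.563% of all genes higher and 0.424% lower. On leaving out a library in turn, edgeR called 2 members without shATF4 DMSO replicate 1 and 0 without any other. Over the full 16 libraries, 0 members were called by edgeR, with 5 at an unadjusted p under 0.05, and 0.00% of genes.

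In the presence of TGFbeta 2 members were higher and 11 lower with shATF4, against 10.9% of all genes higher and 10.7% lower. With the omitted library added, edgeR called 0, with 9 at an unadjusted p under 0.05, and 1.29% of genes. Leaving out shATF4 TGFbeta replicate 1 gave 7 members, shCtrl TGFbeta replicate 1 gave 8, and replicate 2 of either hairpin gave 6. OASL (2.36 and 3.25 against 6.18 and 7.26 CPM, 1.24 ± 0.25) and IFIT2 (1.02 ± 0.23) were higher. XAF1 (-1.64 ± 0.37), OAS3 (-1.19 ± 0.26), IFITM1 (-1.19 ± 0.27) and EPSTI1 (-1.16 ± 0.32) were lower, while OAS1 (-1.32 ± 0.56, adjusted p = 0.106) and MX2 (-1.21 ± 0.50, adjusted p = 0.098) did not pass.

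In LX-2 with DMSO, 5 members were higher and 2 lower with shATF4, against 6.28% of all genes higher and 5.30% lower. With all 16 libraries edgeR called 0, with 8 at an unadjusted p under 0.05, and 0.242% of genes. IFIT2 stood at 7.58 and 6.06 against 17.2 and 18.7 CPM (1.39 ± 0.23, adjusted p = 0.0010), OASL at 3.10 and 4.49 against 8.63 and 9.40 CPM (1.24 ± 0.24), IFI44 at 7.05 and 5.62 against 13.0 and 16.8 CPM (1.22 ± 0.29) and IFIT3 at 15.003 and 14.9 against 26.5 and 32.0 CPM (0.96 ± 0.19). IFITM2 (45.5 and 49.6 against 30.7 and 29.7 CPM, -0.67 ± 0.14) and UBE2L6 (77.6 and 82.9 against 58.4 and 57.5 CPM, -0.48 ± 0.11) were lower, and IFI44L (1.92 ± 0.69, adjusted p = 0.086) did not pass. IFIT2 and IFIT3 were higher with shATF4 in DMSO in both lines, as were 1.37% of the 16173 genes tested in both, and UBE2L6 was lower, as were 1.24%. Without shATF4 DMSO replicate 2 the LX-2 comparison called 2 members, and without shCtrl DMSO replicate 2 it called 3.

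The lines were also compared in shCtrl DMSO, where most genes differed. Of 44 members 23 were higher in LX-2 and 10 in HMLE, against 35.9% of all genes higher and 34.5% lower. With all 16 LX-2 libraries the counts were 20 and 9, with 51.5% of genes called. A difference between lines is therefore not particular to the members, although their share higher in LX-2 is above that of all genes. How each line was grown and sequenced goes with the line, and its part was not tested. BST2 stood at 87.7 and 105 CPM in LX-2 and at 0.750 and 0.880 CPM in HMLE (6.69 ± 0.20, adjusted p = 1.38e-20), and IFITM1 differed by 5.97 ± 0.43. MX2 and XAF1 had 0 counts in HMLE shCtrl DMSO and were at least 151-fold and at least 82.2-fold higher in LX-2. IFIH1 stood at 5.02 and 5.62 CPM in LX-2 and 22.4 and 22.9 CPM in HMLE (-2.28 ± 0.24), and IFI44 (-1.94 ± 0.23), HERC6 (-1.92 ± 0.17) and OAS1 (-1.59 ± 0.41) were also lower in LX-2. CXCL10 (1.27 ± 0.86, adjusted p = 0.191) and ISG20 (0.53 ± 0.26, adjusted p = 0.079) did not pass.

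The response to AA_Dep was then compared between lines, a comparison added after the values were seen. With shCtrl it was more positive in HMLE for 36 of 44 members, against 19.3% of all genes higher and 21.0% lower. With shATF4 it was so for 35 members, against 18.5% of all genes higher and 20.4% lower. With all 16 LX-2 libraries 26 members were called in each, with 14.5% and 12.4% of genes called. IFITM1 differed by 6.55 ± 0.63 with shCtrl (adjusted p = 4.09e-09), where it rose in HMLE and fell in LX-2, and CXCL10 by 6.87 ± 1.11 with shATF4. The CXCL10 value is a description, since CXCL10 reached 10 counts in no HMLE DMSO library. IRF9 did not pass with either hairpin (0.98 ± 0.51, adjusted p = 0.135, and 0.94 ± 0.53, adjusted p = 0.180). The summed immune markers were at 13.9 and 18.4 CPM in shCtrl LX-2 with DMSO and at 5.44 and 4.39 CPM with AA_Dep, and their part in these results was not tested.

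Other genes of the pathway were read from a list of 31 interferons, receptors, kinases and sensors and a list of 45 further interferon-responsive genes. In HMLE AA_Dep raised 20 of 29 tested genes of the first list and lowered 1 with shCtrl, and raised 20 and lowered 2 with shATF4. The 29 include IFNB1, IFNL1, IFNL2 and IFNL3, which had few counts outside AA_Dep. These could enter the test only through the AA_Dep groups, so their calls are descriptions. Of the second list it raised 23 of 44 and lowered 13 with shCtrl, and raised 31 and lowered 7 with shATF4. All genes stood at 29.1% higher and 32.6% lower with shCtrl and 25.7% and 28.4% with shATF4, so the share of the second list lowered with shCtrl is near the background. RTP4 (3.59 ± 0.36), DDX60, a helicase (2.25 ± 0.05), TRIM34 (2.23 ± 0.60) and SLFN5 (1.59 ± 0.07) led with shCtrl. RTP4 and TRIM34 had few counts in DMSO and could enter the test only through other groups, TRIM34 through AA_Dep alone. Their values are descriptions. In LX-2 with shCtrl AA_Dep raised 4 and lowered 10 of 26 genes of the first list, and raised 8 and lowered 19 of 44 of the second, against 22.8% of all genes higher and 22.7% lower. GBP2 (-2.47 ± 0.13) and the antigen-presenting HLA-B (-1.49 ± 0.09), which has near-identical relatives, fell, as did the transcription factor IRF5 (-1.56 ± 0.38) and SOCS1, a feedback inhibitor of JAK signalling (-1.84 ± 0.21). With shATF4 the second list turned to 16 higher and 6 lower, while the first had 7 higher and 8 lower, against 20.3% and 22.1% of all genes. Twist_OE in HMLE raised 17 and lowered 13 of the second list with shCtrl, and raised 32 and lowered 2 with shATF4. Of the first list it raised 14 and lowered 7 with shCtrl, and raised 15 and lowered 3 with shATF4. Of all genes 28.3% rose and 28.9% fell with shCtrl, the latter near the second list's share, and 18.2% rose and 17.2% fell with shATF4. The lists were chosen with earlier results of these data known, and the LX-2 counts are from 15 libraries.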

How the data were processed

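RNA purified with an RNeasy kit was made into SMARTer mRNA-Seq libraries, per the labels' protocols, and the authors deposited raw counts per Ensembl gene for each library, per the file headers. The submitters' processing notes name cutadapt, Bowtie2, STAR, HOMER, featureCounts and DESeq and the builds hg19 and hg38, without versions or roles, and the series also holds ChIP-seq. The handling of reads that map to several places and the use of strand are not given in the sources used here. The 9 ChIP-seq samples were not analysed here.

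Counts were fitted per line with edgeR 4.0.16 (quasi-likelihood test, TMM scaling, the filterByExpr filter) in R 4.3.3, and p-values were adjusted over all genes tested by the Benjamini-Hochberg method. This left 18649 genes in LX-2 and 17940 in HMLE. The fit was tested on simulated counts. Levels are CPM, each count scaled to the total of its library, and the standard error is the size of the log2 change over the square root of the F statistic. Where a group had 3 or fewer counts, a ratio of counts with an exact 95% interval was given, or a lower bound against a floor of 3 counts over the group. Such intervals and bounds cover counting error only. Replicate spread used log2 CPM (prior count 2) of genes with at least 20 counts in the pair.

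Members and lists were chosen with earlier results of these data known, and the comparisons of AA_Dep responses between lines were added after the values were seen. Up to 6 members past the threshold were all named. Otherwise the 4 with the largest change in each direction, at 1 CPM or more in the higher group, and the 2 with the largest change that did not pass were named, beside 10 members per line that were followed throughout, and at most 4 called genes of each further interferon list. Alternatives were DESeq2 1.42.0, its size factors in edgeR, no filter, a replicate block, all 16 LX-2 libraries and leaving out each library. One further gene of the pathway is not reported here.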

Additional observations from a re-analysis of the deposited data

Results flagged for a closer look

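These results concern a response that differed between hairpins or between lines by a test of the difference itself (edgeR, Benjamini-Hochberg adjusted p under 0.05). In HMLE the response to AA_Dep was more positive with shATF4 for 28 members and more negative for 0 (2.99% and 2.10% of all genes), with shATF4 AA_Dep a single library, led by IFI44L (4.07), IFI27 (4.01), IFI6 (3.23) and MX1 (3.17 on the log2 scale). The response to Twist_OE was more positive for 22 and more negative for 4 (16.3% and 13.4% of all genes). RSAD2 (2.99), OAS1 (2.11), CMPK2 (2.02) and IFI44 (1.87) led the first, and IFITM2 (-1.50), IFI6 (-0.82), GBP1 (-0.60) and SP110 (-0.55) were the second. CMPK2 reached 10 counts in no HMLE DMSO library, so its value is a description. The response to Thapsigargin was more positive for 0 and more negative for 1, SAMD9 (-0.41), against 2.16% and 2.40% of all genes. The share of members more negative is near that of all genes.

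In LX-2, with 15 libraries, the response to AA_Dep was more positive with shATF4 for 16 members and more negative for 0 (3.91% and 6.65% of all genes), led by IFITM1 (2.80), EPSTI1 (2.11), TRIM22 (2.03) and XAF1 (1.96). That to Thapsigargin was more positive for 2, IFITM2 (0.83) and GBP1 (0.85), and more negative for 0, against 3.67% and 2.46% of all genes. The share of members more positive is near that of all genes. That to TGFbeta was more positive for 0 and more negative for 1, IFI6 (-1.25), against 0.563% and 0.424% of all genes. The edgeR fit with all 16 libraries called none of these LX-2 differences, with 12 members at an unadjusted p under 0.05 for AA_Dep, 12 for Thapsigargin and 5 for TGFbeta.

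Between lines, the response to AA_Dep was more positive in HMLE for 36 members and more negative for 0 with shCtrl, with IFITM1 at 6.55, and for 35 and 0 with shATF4, with CXCL10 at 6.87. The CXCL10 value is a description, since CXCL10 reached 10 counts in no HMLE DMSO library. Of all genes 19.3% and 18.5% were more positive in HMLE.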

How the results depend on the processing

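The counts of members called in HMLE were within 1.5 times the reported ones with DESeq2 (Wald test), its size factors in edgeR and no filter, except that the Thapsigargin response comparison went from 1 to 2 without a filter (3.16% of all genes). LX-2 counts depended on the omitted library. With all 16 libraries the hairpin comparison called 1 member with AA_Dep in place of 32, and 0 with DMSO, TGFbeta and Thapsigargin, and the comparisons of responses called 0. AA_Dep then called 10 members with shCtrl and 4 with shATF4, TGFbeta 1 and 0, and Thapsigargin 4 with shATF4. The biological coefficient of variation was 29.5% in that fit against 9.21%. Without a count filter the hairpin comparison called 21 members with DMSO (7.21% of all genes), 22 with TGFbeta (12.3%) and 14 with Thapsigargin (4.97%), TGFbeta called 15 with shCtrl (12.7%) and 22 with shATF4 (15.3%), and the comparisons of responses called 27 for AA_Dep (7.93%), 15 for TGFbeta (1.10%) and 8 for Thapsigargin (4.13%). With DESeq2 the hairpin comparison called 11 with DMSO (11.5%) and 4 with Thapsigargin (6.55%), and the TGFbeta response comparison 2 (1.34%). The cause was not tested.

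Leaving out each library in turn, the hairpin comparison in LX-2 called 17 to 34 members with AA_Dep (17 without shATF4 replicate 2), 2 to 7 with DMSO (2 without shATF4 replicate 2, 3 without shCtrl replicate 2), 6 to 8 with TGFbeta and 0 to 1 with Thapsigargin. LX-2 TGFbeta called 3 to 7 with shCtrl (3 without DMSO replicate 2) and 6 to 11 with shATF4 (6 without either TGFbeta library), and Thapsigargin 14 to 16 with shCtrl (14 without DMSO replicate 1). The response comparisons called 0 to 2 for TGFbeta and 0 for Thapsigargin. In HMLE the DMSO hairpin comparison called 5 to 7, shCtrl Thapsigargin 13 to 18 (13 without DMSO replicate 1) and the Thapsigargin response comparison 0 to 2. The single libraries of LX-2 shCtrl Thapsigargin and HMLE shATF4 AA_Dep could not be left out. The shares of all genes called on leaving out a library are not given, here or above. These counts therefore do not tell a loss of calls among members from a loss among all genes.

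Direction reversed for named members in 7 fits. With all 16 libraries BST2 with shCtrl Thapsigargin became 0.35 and IFI6 between hairpins with Thapsigargin -0.46 in LX-2. Without one library, CXCL10 ran from -1.58 (without Twist_OE replicate 2) to 0.13 (without Twist_OE replicate 1) in HMLE shCtrl Twist_OE, and from -1.37 (without DMSO replicate 1) to 1.22 (without DMSO replicate 2) in LX-2 shATF4 AA_Dep. IFIT5 ran from -0.0049 (without DMSO replicate 2) to 0.13 in HMLE shATF4 AA_Dep. IFITM1 ran from -0.22 (without Twist_OE replicate 1) to 0.99 in HMLE shATF4 Twist_OE, and was -0.029 without DMSO replicate 1. Those 4 changes had not passed in the reported fit. Counted once per alternative fit, the other named values kept direction and side of the threshold in 1667 cases, no longer passed in 178 and newly passed in 32. In the fit of all 16 LX-2 libraries, 64 kept both, 50 no longer passed and 2 reversed.

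The samples were not treated as paired by replicate number in the reported fits. The correlations that follow are low but do not decide whether same-numbered samples shared a batch. Deviations of same-numbered samples correlated at -0.19 to 0.16 across pairs of groups in LX-2 and at -0.018 to 0.10 in HMLE, with 1 of 21 over 0.1 in each. With the replicate number as a block, LX-2 shCtrl Thapsigargin called 18 members in place of 26 (38.0% of all genes). The LX-2 hairpin comparison with AA_Dep called 31 in place of 32 (9.05% of all genes), and every count stayed within 1.5 times the reported one.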
